A study of Mus musculus with 4 samples.

Results

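The cell cycle and mitosis genes described here are 48 mouse genes: cyclins and their kinases, kinase inhibitors, the retinoblastoma and E2F factors, mitotic kinases and checkpoint genes, centromere genes and the proliferation markers Mki67 and Top2a. They are 48 of 21900 protein-coding genes, and a position was counted for a gene when its transcript label names that gene. The table lists positions found as methylated by RNA bisulfite sequencing in Tet2 knockout cells, and its name calls them unique to the knockout. Tet2 is an enzyme that oxidises 5-methylcytosine. Bisulfite turns unmethylated cytosine into uracil, and the level given for a position is the unconverted fraction of the reads used there. Of the 506952 listed positions, 2935 carried one of the 48 gene names (0.579%), and they fell in 34 of the genes.

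The cells were cultured mouse acute myeloid leukemia cells driven by NRAS and AE9a (a short AML1-ETO fusion). The labels name 2 libraries of poly(A) RNA from Tet2 knockout (KO) cells and 2 from wild-type (WT) cells. Both genotypes were bisulfite-treated and grown with SCF (50 ng/ml), IL-3 (10 ng/ml), IL-6 (10 ng/ml), G418 (1 mg/ml) and puromycin (2 µg/ml). The labels do not say whether a genotype is 1 clone or whether its libraries came from separate cultures, so the spread between replicates may be technical. WT values fill 0 columns of the table used here, no column belongs to a named library, and KO was therefore not compared with WT. Over all listed positions the lowest coverage was 10 reads, the median 18 and the highest 721. At positions called in 1 replicate, the only ones where reads used are known, a median of 12 were used. Tet2 itself had 1 listed site, which is no check of the knockout because the deleted part is not stated in the labels. Of the blood and myeloid markers, Kit had 106 sites, Mpo 217, Prtn3 44, Cd34 150 and Itgam 158, all on the plus strand, and Ptprc, on the minus strand, had 0.

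Cyclins bind and switch on cyclin-dependent kinases (CDKs), which drive a cell from growth through DNA synthesis into mitosis. Inhibitor proteins and the retinoblastoma family hold this engine back, and E2F factors transcribe the genes that DNA synthesis needs. In mitosis the Aurora and Polo kinases build the spindle, the checkpoint proteins delay separation until every chromosome is attached at its centromere, and separase then cuts the sisters apart. Leukemia cells in culture cycle continuously, and most of these messages are made in dividing cells. In bulk RNA, more cells in a phase and more RNA per cell cannot be told apart.

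The first measurement is the genome base under a listed position, because a methylated cytosine has to be a cytosine in the genome. RefSeq promoter and miRNA hairpin windows of GRCm38.p6, the build that mm10 names, covered 16 of the listed positions in these genes. Of 15 positions on the plus strand, 6 were a cytosine, 7 an adenine and 2 a guanine in the reference (exact 95% interval for cytosine 16.3% to 67.7%). Of the 15, 12 lie in 1 stretch of Foxm1 and 2 are neighbours in Cdc25a. The interval treats them as independent, which they are not, so it does not stand for the cell cycle genes at large. The 1 position on the minus strand, in E2f1, was a cytosine. The following stretches, written 5′ to 3′ on the strand of the gene, are shown because they let the listed positions (in capitals) be read against the genome.
Foxm1, chr6:128375325-128375354, plus strand: ctgttACCAagtttgtaaccagaActGaca
Foxm1, chr6:128375378-128375407, plus strand: agcctCccaggacagGcaAgggcctcctcc
Cdc25a, chr9:109875599-109875628, plus strand: tgaaggttccttctctgcgagccggctACg
E2f2, chr4:136180551-136180580, plus strand: gaagtCcaaaaacaacatccagtgggtgtg
E2f1, chr2:154569500-154569529, minus strand: ccgcgcctagtgcaccgcgcccggCtctcg

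Foxm1 encodes a forkhead factor that transcribes mitotic genes, and 12 of its 177 positions could be read, in the promoter window of its neighbour Tex52 near the end of the Foxm1 span. Of the 12, 4 were a cytosine. At position 128375351, a guanine, 16 of 17 reads used were listed as unconverted (level 0.941, Wilson 95% interval 0.730 to 0.990). At 128375331 and 128375332, both cytosines, the counts were 8 of 14 (0.571) and 9 of 13 (0.692). The adenines on either side of them, at 128375330 and 128375333, had 9 of 16 reads (0.562) and 4 of 16 (0.250). Thus a run of 4 neighbouring listed positions held 2 cytosines between 2 adenines, and the intervals of all 4 overlapped. In Cdc25a, which encodes a phosphatase that activates CDKs, the adenine at 109875626 had 11 of 13 reads (0.846) and the cytosine beside it 6 of 10 (0.6). The cytosine in E2f2, an activating E2F factor, was called in both KO replicates at the authors' mean level of 0.268 (SD 0.0255, n = 2). In E2f1, its relative, 2 of 10 reads used were unconverted (0.2).

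The same was found over the whole table. Of 6037 plus-strand positions under a window, 3138 were a cytosine (52.0%), 1811 a guanine, 1088 an adenine and 0 a thymine, which allows a share of thymine of up to 0.0497% by the limit of 3 counts (0.0611% by the exact 95% interval). In the windows as a whole 26.7% of positions are cytosine and 23.3% thymine. At the base before a listed position thymine made up 17.7%, and at the base after it 18.9%, so the absence of thymine was at the listed position itself. On the minus strand 132 of 146 positions were a cytosine (90.4%). Cytosine made up 68.4% of 862 plus-strand positions called in both replicates, and 8.44% of 533 called in 1 replicate from 20 or more reads used (exact interval 6.22% to 11.1%). In the largest class, the 4642 called in 1 replicate from fewer than 20 reads used, cytosine made up 53.9%. The median level of the plus-strand positions was 0.7 at cytosines, 0.667 at guanines and 0.6 at adenines. In the single calls from 20 or more reads used the order was another, with 0.289 at cytosines, 0.608 at guanines and 0.545 at adenines. How these windows, mostly at gene starts, stand for the rest of a transcript was not tested. The values below are therefore those of listed positions, or sites in the sense of the table, and for 2919 of the 2935 the reference base was not read. What places listed positions on guanines and adenines was not tested.

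**Figure D1:**
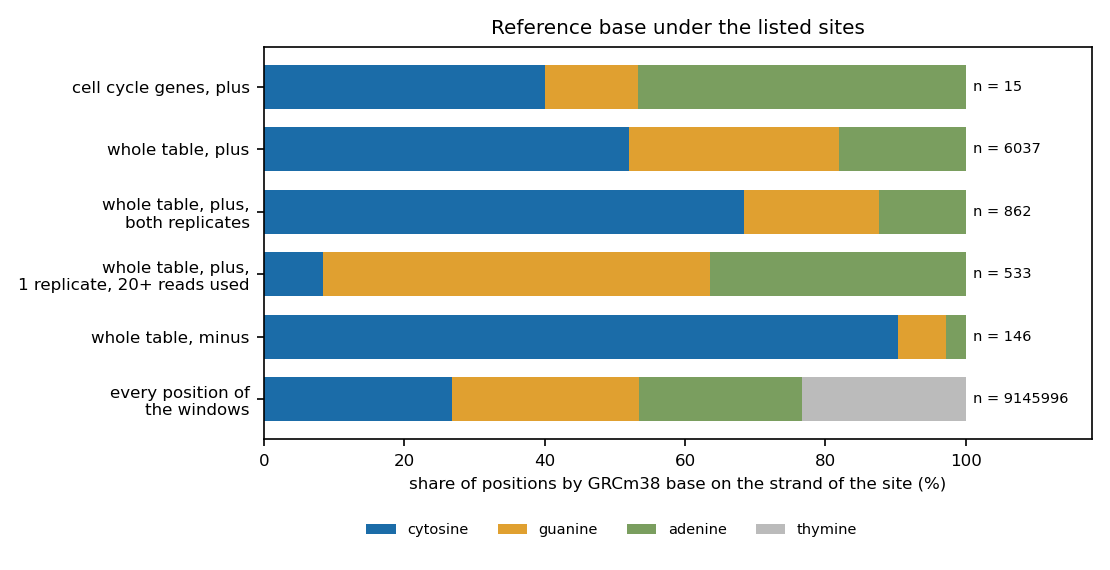
Share of listed positions whose GRCm38 base, on the strand of the site, is a cytosine, guanine, adenine or thymine (horizontal axis, percent), with the number of positions read at the right of each bar. Only positions under a promoter or hairpin window could be read. Cytosine makes up 6 of 15 such plus-strand positions of the cell cycle genes. Over the whole table it makes up 52.0% of 6037 plus-strand positions read and 90.4% of 146 minus-strand positions read. No plus-strand position read was a thymine.

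Whether a gene had listed sites went with its strand. Over the whole series 99.1% of listed positions lay on the plus strand (502191 of 506952). All 23 members known to lie on the plus strand had sites, from 29 to 316 each with a median of 116. Of 21 members on the minus strand 11 had sites, from 1 to 6 each with a median of 2, and 10 had 0. The strand of the other 4, Ccna2, Ccnd1, Cdc25c and Incenp, was not taken from the tables, and these had 0 sites. Among all protein-coding genes 34.2% had at least 1 site and 24.9% had 5 or more. The strand of 8 members came from their own sites, so the fairer reading uses the 36 members in the RefSeq strand table. There 17 of 17 plus-strand members had a site, against 51.4% of plus-strand protein-coding genes, and 9 of 19 minus-strand members, against 18.5% of minus-strand genes. With 5 or more sites the counts were 17 of 17 against 49.8% on the plus strand, and Cenpb alone against 1.24% on the minus strand. A gene that is not expressed has no reads to list, and expression was not measured here. A gene at 0 sites is one with no position in a table limited to called, KO-unique positions at levels of 0.2 or more on 10 or more reads. It may hold positions that were also called in WT or that failed the caller's tests, and 0 sets no upper limit on its methylation.

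Set beside other genes of their strand, the members had more sites and like levels, as a description without a test. Plus-strand members had a median of 116 sites, against 68 (quartiles 34 and 114) in 5731 other plus-strand genes with a site. For minus-strand members with a site the median was 2, against 1 in 2037 other such genes. The median of the members' median levels was 0.536 on the plus strand, against 0.534 (quartiles 0.5 and 0.583) in the other plus-strand genes, and on the minus strand 0.211, against 0.216. The median coverage of plus-strand sites was 19 reads in the members and 18 reads in the other genes. The number of sites was not corrected for transcript length.

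**Figure D2:**
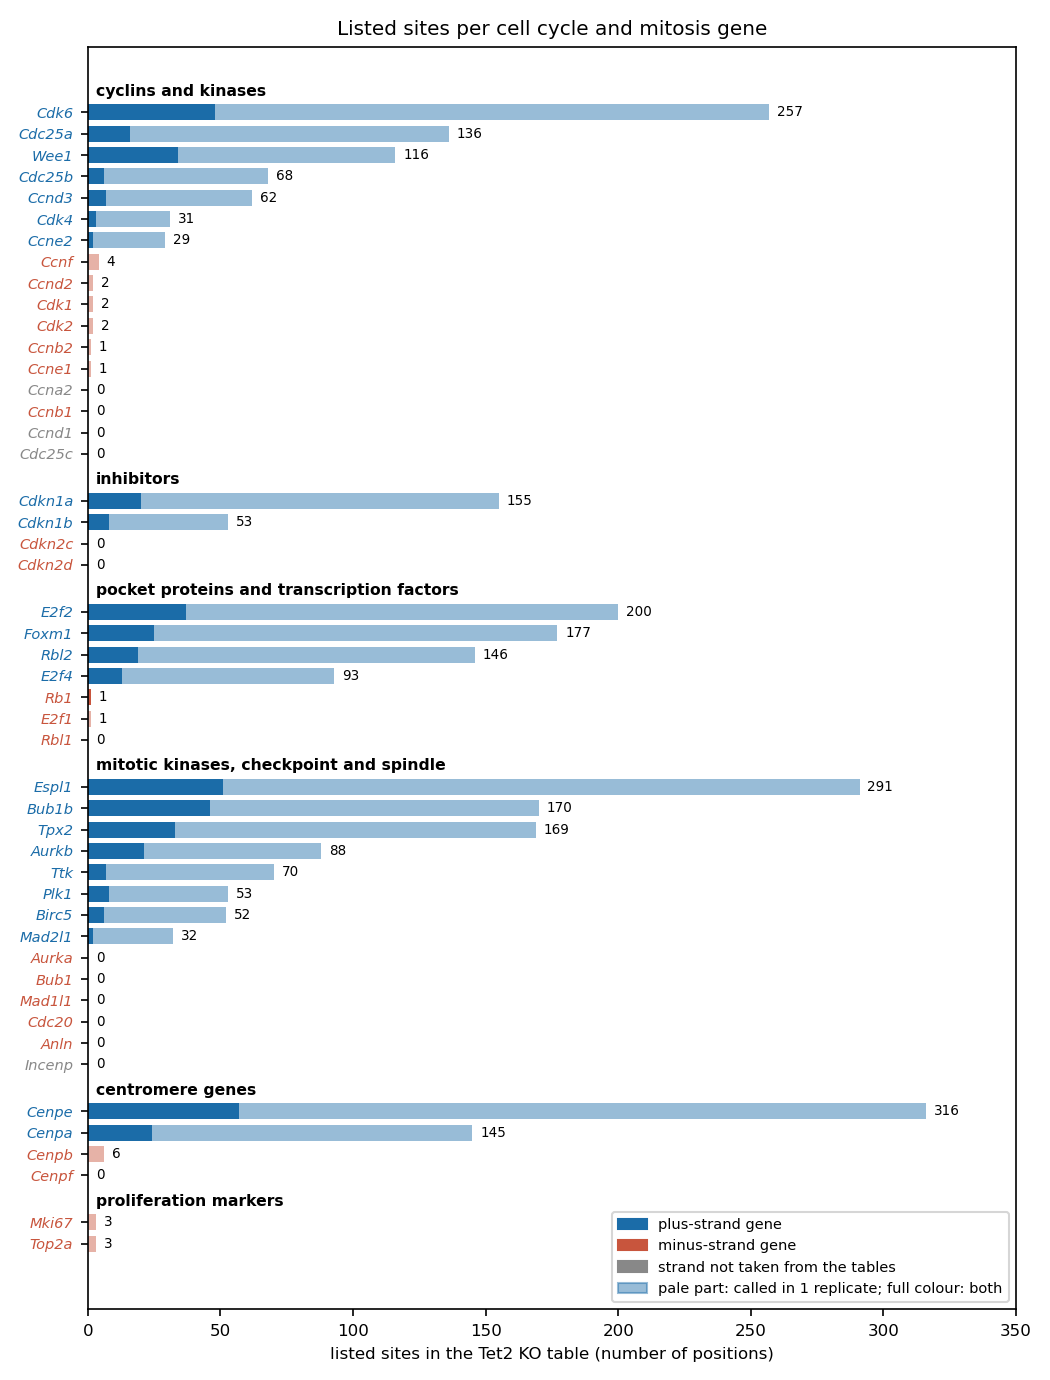
Number of listed sites (horizontal axis, positions) in each of the 48 genes, grouped by role, with sites called in both KO replicates in full colour and sites called in 1 in pale colour. Every plus-strand gene has 29 sites or more, and no minus-strand gene has more than 6.

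Among the cyclins and kinases 13 of 17 genes had sites, 711 in all, where the share over all protein-coding genes was 34.2%. Split by strand, 7 of 7 plus-strand genes had a site (51.4% of such genes in the RefSeq strand table). For minus-strand genes it was 6 of 7 (18.5% in that table), and the 3 genes of unknown strand had 0 sites. The strand of Ccnd2, Ccne2 and Wee1 came from their own sites, so these count as having a site by construction. Cdk6, which like the related kinase Cdk4 starts the cycle under the D cyclins, had 257 sites between 3344122 and 3530914 on chromosome 5. Of these sites 48 were called in both replicates. Levels of the 257 sites ran from 0.2 to 1 with a median of 0.536. Its most covered site called in both, at 3521286 with a mean of 108 reads, had levels of 0.429 and 0.467 in the KO replicates (the authors' mean 0.448, SD 0.0269, n = 2). Which replicate is which is not given. The highest single call of Cdk6 with 20 or more reads used lay nearby at 3521224, with 44 of 50 reads (0.88, Wilson interval 0.762 to 0.944).

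Cdk4, on chromosome 10, had 31 sites with a median level of 0.636. Its most covered site called in both, at 127064915, differed between the replicates, at 0.206 and 0.524 (the authors' mean 0.365, SD 0.225, n = 2), which is the widest spread among the members' most covered shared sites. Ccnd3, the D cyclin with many sites, had 62 with a median of 0.55 on chromosome 17, and at 47595116 all 20 of 20 reads used were listed as unconverted (Wilson interval 0.839 to 1). Ccnd2, another D cyclin, lies on the minus strand and had 2 sites, each with 2 of 10 reads (0.2). Ccnd1 had 0.

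The cyclins of DNA synthesis and mitosis were at the low end. Ccne2, which activates Cdk2, had 29 sites with a median of 0.462, and its highest level was 0.75. Its relative Ccne1 had 1 site, with 2 of 10 reads used out of 38 covering. Ccnb2, a mitotic cyclin, had 1 site with 4 of 13 reads (0.308), and Ccnf, an F-box cyclin, had 4 sites with levels from 0.2 to 0.211. The kinases Cdk1, which drives mitosis, and Cdk2 had 2 sites each, with levels of 0.2 and 0.308 in Cdk1 and 0.2 and 0.227 in Cdk2. Ccna2 and Ccnb1, the other S-phase and mitotic cyclins, had 0. All of these except Ccne2, and Ccna2 whose strand was not taken from the tables, are minus-strand genes.

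The enzymes that set the inhibitory phosphate on CDKs or remove it had many sites. Wee1, the kinase that sets it, had 116 sites on chromosome 7 with a median of 0.615, and 34 of them (29.3%) were called in both replicates, the highest share among the plus-strand members. At its most covered shared site, 110122186, the replicates had 0.688 and 1 (SD 0.221, n = 2), on a mean of 32 covering reads. Its highest single call with 20 or more reads used, at 110122579 in the same stretch near the gene start, had 29 of 33 reads (0.879, Wilson interval 0.727 to 0.952). The phosphatase genes Cdc25a and Cdc25b had 136 and 68 sites with medians of 0.585 and 0.5, and Cdc25c had 0. The most covered shared site of Cdc25a, at 109884445, repeated closely, at 0.581 and 0.593 (SD 0.00849, n = 2), as did that of Cdc25b at 131191704 on chromosome 2, at 0.344 and 0.368.

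The inhibitors split by strand as well. Cdkn1a, which encodes p21 and is induced by p53, had 155 sites on chromosome 17 with a median of 0.6 (quartiles 0.404 and 0.815), and 20 were called in both. Its highest single call with 20 or more reads used had 17 of 20 reads (0.85). Its most covered shared site, at 29100119 with a mean of 104 reads, stood at 0.205 and 0.229. Cdkn1b, which encodes p27, had 53 sites on chromosome 6 with a median of 0.5, and its most covered shared site, at 134922047, stood at 0.308 and 0.326. Cdkn2c and Cdkn2d, which encode the Cdk4 and Cdk6 inhibitors p18 and p19, are minus-strand genes and had 0 sites each.

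Of the retinoblastoma family, Rbl2 (p130), a repressor in resting cells, had 146 sites on chromosome 8 with a median of 0.478. Rb1, the founding member, had 1 site, at 73199297 on chromosome 14, and it was the only minus-strand site of the members called in both replicates, at 0.274 and 0.364 (the authors' mean 0.319, SD 0.0636, n = 2). Rbl1 had 0. E2f2 had 200 sites with a median of 0.6, E2f4, which mostly represses, 93 with 0.538, Foxm1 177 with 0.5, and E2f1 1. At the most covered shared site of E2f2, 136186936 on chromosome 4, the levels were 0.769 and 0.917. E2f4 and Rbl2, which act together in resting cells, had 13 of 93 and 19 of 146 sites called in both replicates. Their most covered shared sites stood at 0.703 and 0.817 in E2f4 and at 0.595 and 0.659 in Rbl2. In Foxm1 the site at 128374560 had levels of 0.533 and 0.617 on a mean of 70 reads, and 20 bases before it, at 128374540, a site called in 1 replicate had 25 of 27 reads (0.926). Of the Foxm1 sites 7 also carried the label of the gene 4933413G19Rik.

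The mitotic genes had 925 sites, all in the 8 plus-strand members of this group of 14. Espl1, which encodes separase, had 291 sites on chromosome 15 with a median of 0.536, and at 102313272 all 33 of 33 reads used were listed as unconverted (Wilson interval 0.896 to 1). The most covered shared site of Espl1, at 102322959, had levels of 0.918 and 1, from a mean of 10 unconverted reads although 58 covered it. The checkpoint kinase gene Bub1b had 170 sites, 46 of them called in both (27.1%), and Tpx2, a spindle assembly factor that activates Aurora A, had 169. Bub1b had levels of 0.2 and 0.28 at its most covered shared site, 118630148 on chromosome 2, while at 118617717 a single call had 38 of 44 reads (0.864, Wilson interval 0.733 to 0.936). The most covered shared site in the whole set lay in Tpx2, at 152876677 on chromosome 2 with a mean of 182 reads, where the levels were 0.366 and 0.372 (SD 0.00424, n = 2). Aurkb, the Aurora kinase of the chromosomal passenger complex, had 88 sites with a median of 0.55, and its most covered shared site, at 69045866 on chromosome 11, had a level of 1 in both replicates. A mean of 64 reads covered that site, but a mean of 14 unconverted reads, which at a level of 1 are all the reads used, stands behind the value. Birc5 (survivin), which sits in the same complex, had 52 sites with a median of 0.529 and levels of 0.451 and 0.581 at its most covered shared site, and Incenp, the scaffold of that complex, had 0.

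Plk1, the Polo kinase, had 53 sites with a median of 0.533, and Ttk (Mps1), a checkpoint kinase, 70 with 0.5. Their most covered shared sites were near the lowest level the table holds, at 0.205 and 0.229 in Plk1 and at 0.2 and 0.258 in Ttk. Mad2l1, which blocks Cdc20 until chromosomes are attached, had 32 sites and the highest median of the 48 genes, 0.668, quartiles 0.3 and 0.806. Its highest single call with 20 or more reads used kept 56 of 77 reads (0.727, Wilson interval 0.619 to 0.814). At its most covered shared site, 66535543 on chromosome 6, the levels were 0.222 and 0.232. Aurka, Bub1, Mad1l1, Cdc20 and Anln, which encodes the cleavage furrow protein anillin, are minus-strand genes with 0 sites. Partners in 1 complex could differ in sites, but this cannot be told apart from the strand split. Mad2l1, a plus-strand gene, had 32 and Mad1l1, a minus-strand gene, had 0. Aurkb, a plus-strand gene, had 88 and Incenp, whose strand is not known here, had 0. For comparison, 18.5% of minus-strand protein-coding genes had a site, against 51.4% of plus-strand ones. A difference particular to these complexes was not tested.

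Centromere genes held both ends of the range. Cenpe, the kinesin that carries chromosomes to the spindle's middle, had 316 sites on chromosome 3, the most of the 48 genes, and the lowest median among the plus-strand members, 0.444 (quartiles 0.312 and 0.545). Only 2 of its sites reached a level of 1, and its most covered shared site, at 135246875, stood at 0.479 and 0.531. Cenpa, the histone H3 variant that marks the centromere, had 145 sites in a span of 7961 bases on chromosome 5, or 18.2 per kilobase of span, the highest density of the 48 genes. Its median was 0.547 and 24 sites were called in both, the most covered of which, at 30667443, stood at 0.2 and 0.3. Near its end, at 30674510, 26 of 27 reads used were listed as unconverted (0.963, Wilson interval 0.817 to 0.993). Cenpb, which binds a centromere repeat, had 6 sites at 0.2, 0.235 and 4 at 0.25, and all 6 also carried the label of the miRNA gene Mir3098. Cenpf had 0. The centromere sites together had a median of 0.462, and 0.542 without Cenpe.

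The proliferation markers, both on the minus strand, had few sites. Mki67, whose protein coats mitotic chromosomes, had 3, with levels of 0.2, 0.211 and 0.25, and its highest site had 5 of 20 reads used out of 72 covering. Top2a, the topoisomerase that untangles sister DNA, had levels of 0.2, 0.2 and 0.727. The last of these, at 99002090 on chromosome 11, had 8 of 11 reads (Wilson interval 0.434 to 0.903) and was the only minus-strand site of the members above 0.319.

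**Figure D3:**
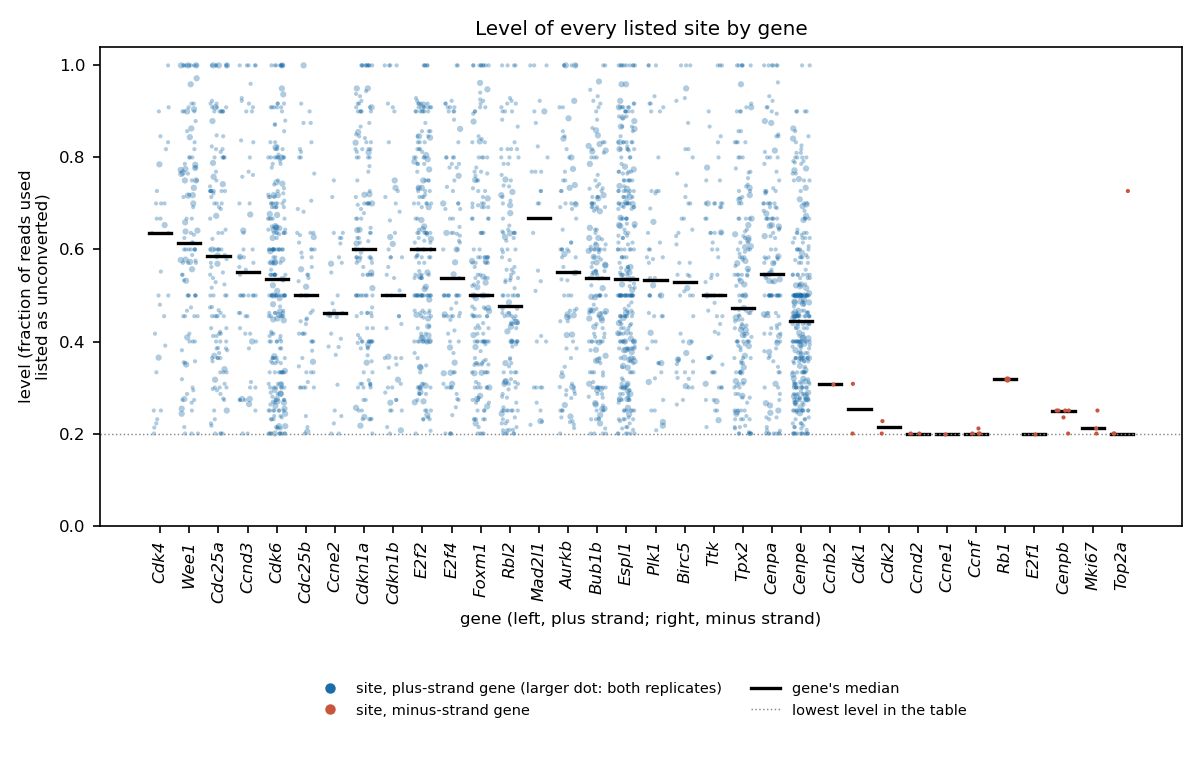
Level (vertical axis, fraction of the reads used that were listed as unconverted) of every listed site in the 34 genes with sites, with each gene's median as a black line and the table's lowest level of 0.2 as a dotted line. Medians run from 0.444 in Cenpe to 0.668 in Mad2l1 on the plus strand and from 0.2 to 0.319 on the minus strand.

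Levels within a plus-strand gene spread widely and reached 1 in every such gene except Ccne2, and 112 of the members' sites had a level of 1. Sites of 1 gene share reads, so the genes' medians are descriptions and were not tested against each other. Minus-strand sites used fewer of their reads. The median share of covering reads that entered the level was 81.2% for plus-strand sites and 41.7% for minus-strand sites of the members, and in other genes 82.6% and 47.6%. Among single calls, 20 or more reads were used at 500 of 2416 plus-strand sites (20.7%), and these had a median level of 0.468, against 0.545 at sites with fewer. The plus-strand single calls with 20 or more reads used that are named above are in the class where 8.44% of readable positions were a cytosine.

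Of the members' sites 494 of 2935 were called in both KO replicates (16.8%, exact interval 15.5% to 18.2%). On the plus strand the share was 16.9% in the members and 14.3% in the other genes. At 10 to 19 covering reads it was 13.5% (11.8% to 15.4%) in the members and 11.3% in the other genes, and at 20 to 49 reads 20.7% (18.5% to 23.0%) and 18.6%. At 50 or more reads the members' interval of 12.9% to 25.2% held the other genes' 17.1%. These intervals cover counting error only and treat neighbouring sites as independent, which they are not. Over the 23 plus-strand members, the most covered shared site had a mean level from 0.217 to 1 with a median of 0.448, and the SD between the replicates ran from 0 to 0.225 with a median of 0.0410. At all shared sites the KO replicates differed by a median of 0.092 in the members and 0.1 in the other genes, and 10% of the members' shared sites differed by more than 0.261. On the minus strand 1 of 26 sites was shared.

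Along the gene, 27.4% of the members' sites lay in the last decile (the last 10%) of the RefSeq span and 13.4% in the first decile. On the plus strand these shares were 27.5% and 13.2% in the members, against 28.8% and 8.23% in the other genes. The role groups differed. Cyclins and kinases had 57.4% of their sites in the last decile (exact interval 53.7% to 61.1%), pocket proteins and transcription factors 27.7%, mitotic genes 18.9%, inhibitors 9.62% and centromere genes 6.21%. The first of these values rested on Cdk6, with 90.7% of its sites there, and Ccnd3, with 93.5%. Without both it was 29.8%, without Cdk6 alone 38.5%, and over all members without both 19.6%. The interval above treats sites of the same gene as independent, which they are not, and does not cover this difference between genes. Wee1 and Plk1 had 44.0% and 41.5% of their sites in the first decile. The span counts introns, so a long last exon fills more of it, and exons were not used here.

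**Figure D4:**
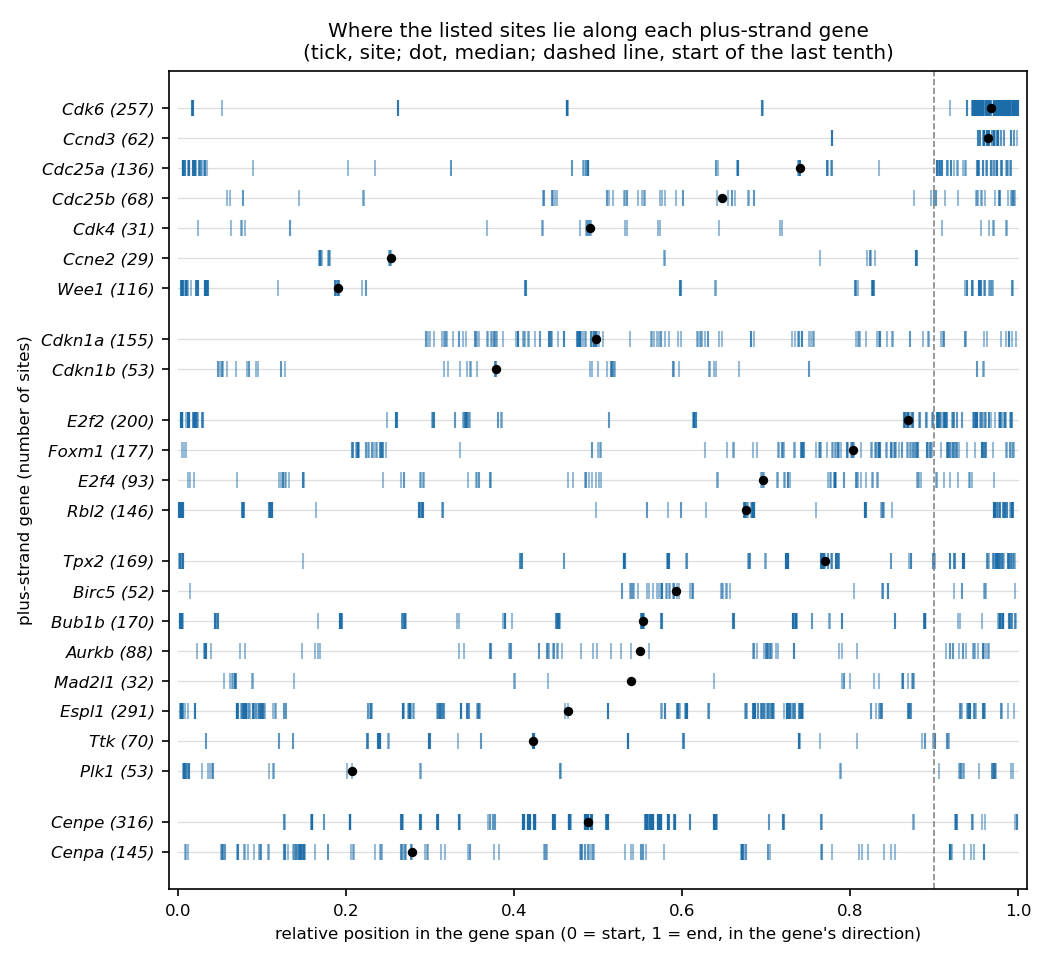
Relative position of each listed site in the RefSeq span (horizontal axis, 0 at the start and 1 at the end in the gene's direction) for the 23 plus-strand genes, with the median as a dot and the last decile marked by a dashed line. Sites of Cdk6 and Ccnd3 crowd into the last decile, while those of Wee1, Plk1 and Cenpa lie mostly before the middle.

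Sites stood close together. Another listed site lay within 10 nt for 72.0% of the members' sites, and on the plus strand for 72.5%, against 70.5% in the other genes. The fullest stretch of 100 nt held 24 sites in Wee1, starting at 110122741 on chromosome 7, and 23 in Bub1b and 21 in Cenpa. Unbroken runs of listed positions reached 6 nt in Aurkb, from 69045822 to 69045827, and 6 nt in E2f4, from 105303687 to 105303692, and 5 nt in Foxm1 and Tpx2. On the minus strand Cenpb had 4 sites within 100 nt and no other member more than 1.

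The wider cell cycle machinery followed the same split. Of 89 further genes, in a list drawn up with earlier results of these data known, 64 had sites. All 49 known to lie on the plus strand had them, with a median of 89 per gene, and 15 of 37 on the minus strand did, with a median of 1. In the RefSeq strand table the counts were 42 of 42 and 13 of 35, to be read against the same 51.4% and 18.5%. Sites were found in 13 of 17 genes of the anaphase-promoting complex, which marks cyclins for destruction, and in 15 of 20 cohesin and condensin genes. They were found in 15 of 25 kinetochore genes, 9 of 14 CDK regulators and 12 of 13 E2F and DREAM genes. These counts pool the strands, and the share over all protein-coding genes was 34.2%. Every gene of each group known to lie on the plus strand had a site. On the minus strand 4 of 7, 2 of 6, 4 of 14, 1 of 5 and 4 of 5 did, in the same order, and none had 5 or more sites. The strand of Stag2, Smc4, Nsl1, Ccnh, Pkmyt1, E2f5 and Lin9 (plus) and of Rad21 and Spc24 (minus) came from their own sites. These genes therefore count as having a site by construction. Cdc23, Nipbl and Cdkn1c had 0 sites and no known strand, so the counts by strand leave them out. Tfdp1, the partner of the E2F factors, led with 266 sites (median level 0.6). The cohesin gene Smc3 had 240 (0.441), while the cohesin gene Rad21, on the minus strand, had 3 (0.211).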

How the data were processed

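Poly(A) RNA of 2 Tet2 KO and 2 WT libraries was bisulfite-converted and sequenced single-end with a stranded kit per the labels. Library totals were not used here. The genome build is mm10 per the submitters' processing notes, and neither the aligner nor the site caller is given in the sources used here. In columns made by the authors the table gives, per the file headers, covering and unconverted reads as averages over the KO replicates with a call (used as a score, since means were rounded to whole numbers), the level as a fraction, and its SD. Combined p-values in the authors' deposited table reached at most 0.000114 (methylation state) and 0.0773 (methylation rate). No column of another series was found (0 columns).

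Reads used were computed as unconverted reads over the level at single calls and were whole in 100% of them (tolerance 0.0006). The deposited SD was read as a population SD, because both replicates' levels then stayed between 0.199 and 1.001 and 3502 of 72227 sites had a replicate at 0.2, against 218 with the other divisor. It was converted to a sample SD. Gene spans came from RefSeq (GRCm38.p6), in which all 48 symbols matched, and gene strands from its promoter table, where 36 matched, or from the strand of the gene's own sites for 8. Over 394951 pairs of a site and a gene in that table, 100% lay on the strand of the gene. Reference bases came from 32851 promoter windows (250 bases before to 50 after a start) and 1005 miRNA hairpins, credited to RefSeq. Levels from 1 replicate have Wilson and shares exact (Clopper-Pearson) 95% intervals, which cover counting error only.

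The test of KO against WT was not made, for want of WT values. The members and lists were chosen with earlier results of these data known. Every member is reported. Considered for naming were its highest single call at 20 or more reads used (otherwise the most read single call) and its most covered site called in both replicates. A site called in both can be higher than the single call named. The reading of the reference base, the sequences, the densest stretches and the longest runs were chosen after the data were examined. The lookups were checked on simulated data. Python 3.11.15, pandas 2.3.3 and scipy 1.17.1 were used.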

Additional observations from a re-analysis of the deposited data

How the results depend on the processing

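No paired analysis was possible because the table does not say which library a call or a replicate's level came from and holds no WT value, and leaving out a replicate was not run for the same reason. The count of members with a site stayed within 24 to 34, the plus-strand count within 21 to 23 and the median level within 0.456 to 0.545 under all 8 alternatives. Members' sites numbered 1460, 635 and 174 at 20, 30 and 50 or more covering reads, and 494 when called in both replicates. They numbered 503 with 20 or more reads used and 822 without a neighbour within 10 nt. Reads used are known for single calls only. The setting of 20 reads used, here and below, therefore leaves out every site called in both replicates, whatever its depth. Minus-strand members with a site numbered 5 at 50 or more covering reads, 1 when called in both, 3 with 20 or more reads used and 7 at a state p-value of at most 1e-06. Neither here nor below is the share over all genes given under the same setting. A fall particular to these genes therefore cannot be told from a fall in every gene. The last decile held 29.8% and 29.9% of sites at 30 and 50 covering reads, 25.6% with 20 reads used and 31.1% without neighbours. Calls in both replicates made up 20.2% and 19.1% at 20 and 30 covering reads, 14.96% without neighbours and 18.5% at the stricter p-value.

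The other values come from alternatives chosen after seeing the data. At 50 or more covering reads 14 members and not 24 had 5 or more sites, and 35 of the further genes and not 64 had a site. The members' plus-strand positions at a cytosine were 3 of 6 and 1 of 1 at 20 and 30 covering reads and 1 of 1 in both replicates. They were 0 of 2 in single calls with 20 or more reads used and 2 of 2 without neighbours. Over the whole table cytosine made up 62.5%, 56.6% and 37.7% of plus-strand positions under a window at 20, 30 and 50 covering reads. It made up 68.4% of those called in both replicates and 8.44% of single calls with 20 or more reads used. The share was 46.3% without neighbours and 50.6% with 1 gene label. The cause was not tested. A site read 20 times has a wide interval, so small differences in level between single sites are not detectable at this depth.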
